A study of Mus musculus with 63 samples.

Results

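The genes described here are 36 genes of DNA replication and S phase, the cell cycle phase in which the genome is copied, measured in Eµ-myc lymphoma. The members come from a list of gene names, and each was read from the probe set that names only that gene, the one with the highest mean over all arrays where a gene had more than 1. All 36 were measured, among 19938 genes with such a probe set. They were sorted by role into 6 groups: origin licensing (11 genes), origin firing with cyclin E (5), polymerases and primase (6), sliding clamp, clamp loader and single-strand binding proteins (7), lagging strand processing with Uhrf1 (3) and nucleotide supply (4). The question asked was whether their transcripts differed 4 h after cyclophosphamide, step by step and batch by batch, and how they moved with mitotic genes from lymphoma to lymphoma.

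The series holds 63 Affymetrix arrays of lymph node lymphoma from the Eµ-myc mouse, in which a Myc transgene under the immunoglobulin heavy-chain enhancer drives B-lineage tumours, on a C57BL/6 background. All groups carry the transgene, and RNA was taken from the node without purifying the tumour cells. The group labelled CTX 4h has 31 arrays: 29 made from 100 ng of RNA, for which the labels give a single dose of 300 mg/kg cyclophosphamide, an alkylating drug, in recipient mice carrying transplanted lymphoma, and 2 made from 300 ng. The group labelled native has 32 arrays, 15 made from 100 ng and 17 from 300 ng; whether these nodes came from transgenic mice or from recipients is not settled by the labels. The series text speaks of untreated lymphomas, so the treatment of the CTX 4h arrays rests on their own labels. Each of the 63 lymphoma numbers occurs once, so no number appears in both groups. Whether arrays with different numbers share a tumour of origin is not settled by the labels, and the fits take all arrays as separate. The p-values measure only the spread between these arrays. RNA input, and at 100 ng the leading digit (1, 8 or 9) of the number given to each lymphoma, split the arrays into 4 batches; CTX 4h and native have 6 and 7 arrays for numbers starting 1, 9 and 3 for numbers starting 8, 14 and 5 for numbers starting 9, and 2 and 17 at 300 ng. Replicate numbers below only name arrays.

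Replication is prepared when the origin recognition complex, Cdc6 and Cdt1 load the Mcm2 to Mcm7 helicase onto DNA, and it starts when cyclin E with its kinase partner, Cdc45 and the GINS complex turn the helicase on. Primase and the polymerases then copy the strands, held on DNA by the Pcna clamp that replication factor C loads, while ribonucleotide reductase, thymidylate synthase and thymidine kinase supply the building blocks. Most of these genes are classical targets of E2F transcription factors, whose activity peaks around the G1 to S transition, whereas mitotic genes such as Plk1 and Aurka peak later, in G2 and M; in B-cell tumours driven by Myc both programmes are usually high.

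The promoters show what such genes carry upstream. Of the 36 members, 29 matched an entry in RefSeq's mouse annotation (build GRCm38.p6), from which the 250 bases before the most upstream start were read. Both strands were searched for 4 spellings of the E2F site (TTTCCCGC, TTTCGCGC, TTTGCCGC and TTTGGCGC), for CCAAT, the core of the NF-Y site, and for CACGTG, the E-box that Myc with Max can bind; overlapping matches were each counted. An E2F spelling stood in 7 of the 29 (24.1%), namely Mcm5, Mcm6, Mcm7, Cdc6, Pola1, Rfc3 and Orc1, against 1.92% of all 27025 promoters. CCAAT stood in 18 of the 29 (62.1%) against 34.5% of all promoters, and CACGTG in 3 of the 29 (10.3%) against 6.04%. Mcm6 held 3 E2F spellings, more than any other member. The 4 windows below are shown because Mcm5 and Cdc6 hold E2F letters while Rrm1, the member with the tightest relation to mitotic genes in native nodes, and Pcna, the most abundant member, hold none of these spellings; they read 5′ to 3′ on the strand of the gene, with the matches in capitals.
Mcm5, GRCm38.p6 chr8:75109259-75109508, plus strand: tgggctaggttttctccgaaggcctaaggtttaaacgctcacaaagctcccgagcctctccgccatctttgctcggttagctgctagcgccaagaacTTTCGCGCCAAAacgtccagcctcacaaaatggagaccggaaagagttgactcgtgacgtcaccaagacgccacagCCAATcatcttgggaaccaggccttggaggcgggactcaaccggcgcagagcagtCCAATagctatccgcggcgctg
Cdc6, GRCm38.p6 chr11:98907901-98908150, plus strand: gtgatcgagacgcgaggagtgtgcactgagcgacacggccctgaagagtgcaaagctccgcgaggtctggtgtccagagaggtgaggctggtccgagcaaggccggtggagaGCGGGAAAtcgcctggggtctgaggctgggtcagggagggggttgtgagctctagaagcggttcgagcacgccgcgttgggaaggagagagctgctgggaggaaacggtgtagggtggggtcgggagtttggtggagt
Rrm1, GRCm38.p6 chr7:102441445-102441694, plus strand: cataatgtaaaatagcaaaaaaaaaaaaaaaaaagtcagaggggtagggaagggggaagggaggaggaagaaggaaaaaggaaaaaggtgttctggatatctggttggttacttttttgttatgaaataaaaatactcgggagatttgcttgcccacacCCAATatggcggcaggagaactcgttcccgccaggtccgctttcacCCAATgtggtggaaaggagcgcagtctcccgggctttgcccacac
Pcna, GRCm38.p6 chr2:132253181-132253430, minus strand: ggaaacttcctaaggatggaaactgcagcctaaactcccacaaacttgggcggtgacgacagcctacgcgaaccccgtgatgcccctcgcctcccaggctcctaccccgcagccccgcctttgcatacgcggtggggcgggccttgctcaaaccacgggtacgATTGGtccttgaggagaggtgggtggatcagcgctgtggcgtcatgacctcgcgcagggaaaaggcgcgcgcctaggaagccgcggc
In Mcm5 the run of capitals is a pair of overlapping E2F spellings, TTTCGCGC from 153 bases before the start and GCGCCAAA from 149, each the reverse strand form of a listed spelling or the spelling itself, followed by CCAAT at 77 and 22 bases. In Cdc6 the match is GCGGGAAA at 138 bases. Rrm1 held CCAAT at 91 and 45 bases, and Pcna held its reverse, ATTGG, at 87 bases. A match describes letters and not a bound site, and the lack of one says only that these spellings are not in this window.

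The nodes had the expression of B-lineage tumours: Cd79b, a chain of the B-cell receptor, was between 12.38 and 13.43 on native arrays and between 12.37 and 13.44 on CTX 4h arrays, on the deposited log2 scale. Cd79a, the partner chain, ran from 8.38 to 12.99 and from 9.16 to 13.03. Array medians ran from 6.53 to 7.11. Genes of other cells were also compared: 2 of 12 macrophage genes, 5 of 10 stromal genes and 34 of 60 small RNA genes were higher in CTX 4h, where 1.41% of all genes were, and 1 of 12 T and NK cell genes was lower, where 1.26% of all genes were. None of 9 B-cell genes passed (limma with Benjamini-Hochberg adjustment over 19938 genes). The mean centred macrophage level ran from -0.60 to 0.34 on native and from -0.91 to 1.30 on CTX 4h arrays, the stromal level from -0.60 to 0.44 and from -0.68 to 0.96, and the T and NK cell level from -1.01 to 1.89 and from -1.38 to 1.90. Their part in the results was not tested beyond the fits that carry these scores as terms. In a whole node, fewer cells of a type and less RNA per cell cannot be told apart.

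Native replicates 4 (300 ng) and 25 (100 ng, numbers starting 9) stood apart. Myc was 10.64 and 11.39 there against at least 12.36 on the other 61 arrays. The replication genes were low as well: both arrays were the lowest 2 of 63 for 29 of the 36 members. Rrm1, the large subunit of ribonucleotide reductase, was 9.15 and 8.64 against at least 11.09 elsewhere, and Ccne2, a cyclin E gene, was 6.53 and 6.56 against at least 8.71. Pcna was 11.35 and 10.57 against at least 12.28. The exceptions were Gins2, Cdc45, Tyms, Pold1, Rfc3, Orc1 and Tk1. Tk1, thymidine kinase, was 9.92 on replicate 25, well inside the range of the rest, by the probe set used, 1 of 2 for this gene. The mean level of the 34 mitotic genes relative to their means over all arrays, here the mitotic score, was -1.88 and -1.62 on these arrays. The share of all genes for which both arrays were the lowest 2 was not computed. Many genes other than members moved there too: in native 62.9% of all genes were called for a relation to the mitotic score with these arrays and 16.5% without them. The comparisons below are given with and without them, a choice made after the values were known.

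**Figure D1:**
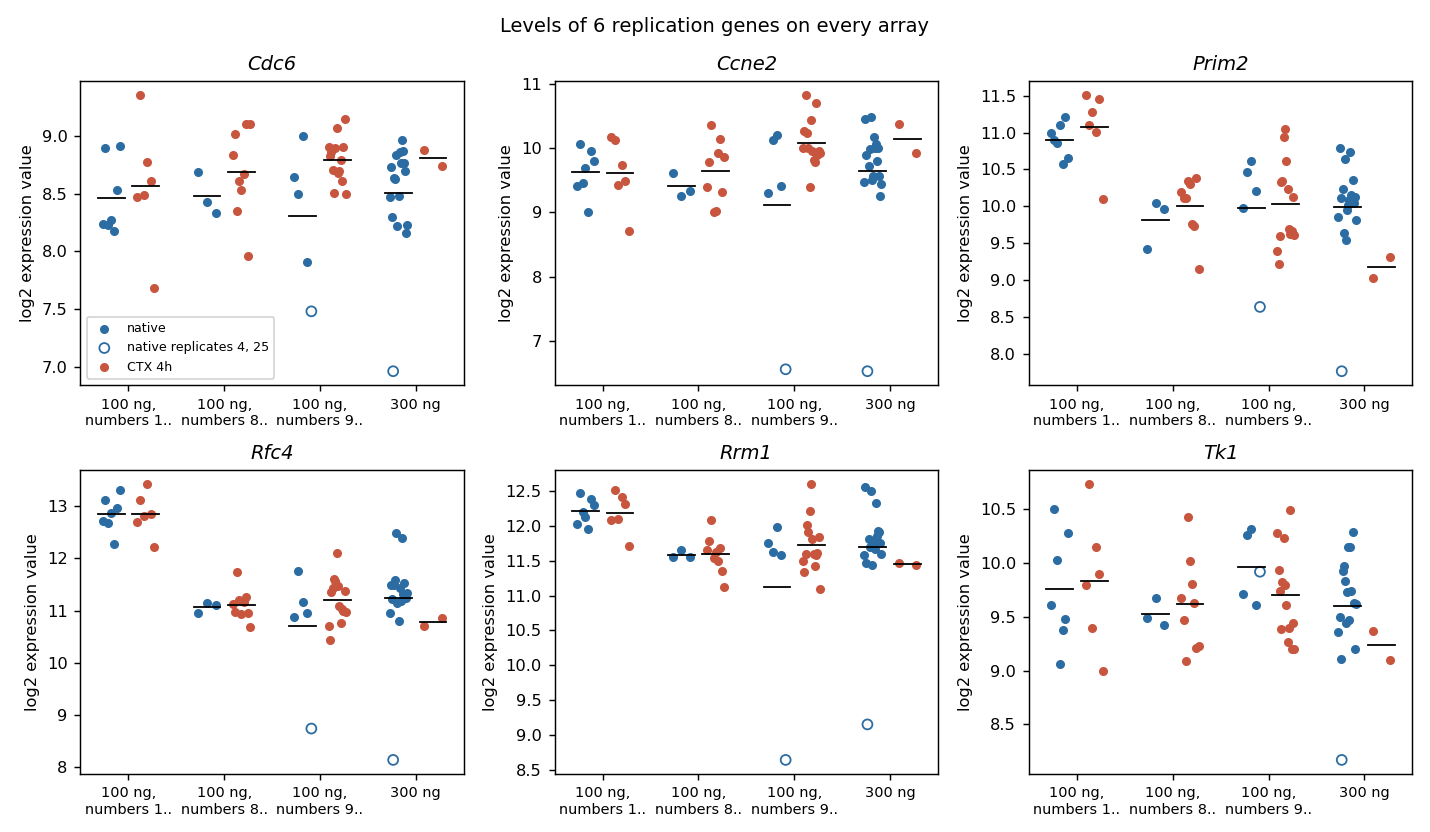
Levels of Cdc6, Ccne2, Prim2, Rfc4, Rrm1 and Tk1 on every array (log2 expression value on the vertical axis), by batch along the horizontal axis, native in blue and CTX 4h in red, with a line at each group mean and open circles for native replicates 4 and 25. The groups overlapped in each panel, the open circles lie far below the rest for Rrm1 and Ccne2, and Rfc4 was higher for numbers starting 1, where it ran from 12.22 upwards in CTX 4h.

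Replication genes were abundant. The median of the members' mean levels was 10.16 in native and 10.23 in CTX 4h, against 7.12 for all genes. Pcna, the sliding clamp, was the most abundant member, with a native median of 12.64, and its mean stood at the 99.5th percentile of all genes; Orc1, the large subunit of the origin recognition complex, was the lowest with a native mean of 7.78, at the 59.2th percentile. The median SD of the members within batches was 0.58 in native and 0.38 in CTX 4h, against 0.28 and 0.27 for all genes. Without native replicates 4 and 25 the native value was 0.31, against 0.22 for all genes, and so below that of CTX 4h. Ccne2 had a native SD of 0.88 with these arrays and 0.37 without them, where Tyms spread most, at 0.54. Intensities of different probe sets depend on their probes, so the order of genes is only approximate.

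Between CTX 4h and native no member passed the test: 0 of 36, where 2.67% of all genes did (limma with RNA input held, Benjamini-Hochberg adjusted p under 0.05). The 36 differences ran from -0.29 to 0.45 on the log2 scale, 19 above 0 and 17 below, where 46% of all genes were above 0, with a median of 0.02 against -0.01 for all genes. At an unadjusted p under 0.05, 3 members were higher and none was lower, where 7.62% and 9.85% of all genes were. The mitotic list moved: 13 of 34 mitotic genes passed the test as lower, where 1.26% of all genes did. All 34 but Pttg1 (0.12) had a difference below 0, with a median of -0.60. Kif2c, a microtubule-depolymerising kinesin, fell by 1.01 ± 0.21 (SE; adjusted p = 0.00391, limma), and Aurka, a spindle kinase, fell by 1.03 ± 0.23 (adjusted p = 0.00549). Plk1, a kinase of mitotic entry, fell by 1.23 ± 0.28 (adjusted p = 0.00624), and Kif20b, a kinesin of cytokinesis, fell by 0.74 ± 0.17 (adjusted p = 0.00744). The mitotic list was known from earlier results of these data, so its direction is not independent evidence. The median of the 36 was -0.01 with arrays shifted to a common median and 0.09 with quantile normalization. Fits that added the macrophage and stromal scores, the B-cell score or the small RNA score still called none of the 36. Quantile normalization called 2, Cdc6 at 0.42 and Rpa2 at 0.36, both higher, where 778 of 19938 genes were called. Array weights called 8, 1 higher and 7 lower, and the share of all genes called with them is not given.

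Licensing genes had a median difference of 0.02, with 7 of 11 above 0. Cdc6, the loader that recruits the helicase with Cdt1, had the smallest p among them. On native arrays its lowest, median and highest values were 6.96, 8.51 and 9.0, and on CTX 4h arrays 7.68, 8.74 and 9.36. The groups overlapped, with 25 of 31 CTX 4h arrays above the native median, and the difference of 0.30 ± 0.11 did not pass (adjusted p = 0.142, limma). Mcm6, a helicase subunit, ran through 8.86, 10.99 and 11.63 in native and 10.09, 11 and 11.57 in CTX 4h, with a difference of 0.20 ± 0.14 (adjusted p = 0.435, limma). Its medians were alike, and without native replicates 4 and 25 the lowest native value was 10.27, above that of CTX 4h. Mcm5, another subunit, ran through 9.16, 11.22 and 12.20 in native and 10.76, 11.19 and 12.29 in CTX 4h, a difference of -0.05 ± 0.15. The other helicase subunits were as close: Mcm2 and Mcm3 differed by 0.02 each, Mcm4 by 0.03 and Mcm7 by 0.12. Cdt1, the other loader, differed by -0.10 ± 0.17, Orc1 by -0.11 ± 0.15 and Orc6, the small origin recognition subunit, by 0.06 ± 0.13. Mcm10, which helps to activate the loaded helicase, differed by -0.14 ± 0.14 (adjusted p = 0.627, limma).

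Among firing genes the fitted differences over all arrays were above 0 for the cyclin E genes and below 0 for the helicase activators. None of them passed. Ccne2 had the largest positive difference of all 36 members: its lowest, median and highest values were 6.53, 9.66 and 10.48 in native and 8.71, 9.92 and 10.83 in CTX 4h. That difference was 0.45 ± 0.20 (adjusted p = 0.228, limma), with 23 of 31 CTX 4h arrays above the native median. Ccne1, the other cyclin E gene, ran through 8.02, 10.22 and 11 in native and 9.24, 10.33 and 10.93 in CTX 4h, a difference of 0.26 ± 0.14 (adjusted p = 0.339, limma). Gins1, a GINS subunit, ran through 6.67, 8.94 and 10.09 in native and 8.07, 8.76 and 10.13 in CTX 4h, a difference of -0.29 ± 0.18 (adjusted p = 0.403, limma). Only 10 of 31 CTX 4h arrays were above the native median of Gins1. Cdc45, the helicase cofactor, differed by -0.15 ± 0.13, and Gins2, a second GINS subunit, by -0.05 ± 0.12. These sides of 0 held at 300 ng but in none of the batches of numbers starting 1, 8 and 9. There Gins2 was at 0.15, 0.15 and -0.01, Cdc45 at -0.15, 0.05 and 0.13, and Gins1 at -0.13, -0.22 and 0.30. Ccne1 was above 0 in each batch, and Ccne2 was at -0.01 for numbers starting 1. Without native replicates 4 and 25 the sides were as over all arrays, with Ccne2 at 0.25 ± 0.12.

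Polymerase and primase genes had a median difference of -0.09, with 5 of 6 below 0. Pold1, the catalytic subunit of polymerase delta, ran through 8.88, 10.20 and 10.98 in native and 8.60, 9.88 and 10.92 in CTX 4h. The difference was -0.23 ± 0.14 (adjusted p = 0.399, limma), and 12 of 31 CTX 4h arrays were above the native median. Prim2, the large primase subunit, ran through 7.77, 10.15 and 11.21 in native and 9.03, 10.13 and 11.51 in CTX 4h, with a fitted difference of -0.24 ± 0.19 (adjusted p = 0.531, limma). Its medians were nearly equal. The fitted difference holds the RNA input, which plain medians do not, but it does not hold the leading digit of the lymphoma number. Within numbers starting 1, 8 and 9 the difference of Prim2 was 0.17, 0.20 and 0.05, and at 300 ng it was -0.82. The polymerase alpha subunits Pola1 and Pola2 differed by -0.06 ± 0.16 and -0.12 ± 0.14, Prim1, the catalytic primase subunit, by -0.05 ± 0.15, and Pole, the leading strand polymerase, by 0.03 ± 0.17.

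The clamp group had a median difference of 0.02, with 4 of 7 above 0. Rpa2, a subunit of the single-strand binding complex RPA, ran through 8.43, 10.33 and 10.94 in native and 9.75, 10.58 and 11.47 in CTX 4h. Its difference was 0.26 ± 0.12 (adjusted p = 0.219, limma), with 25 of 31 CTX 4h arrays above the native median, whereas Rpa1, the large subunit, differed by 0.02 ± 0.12. Pcna ran through 10.57, 12.64 and 13.23 in native and 12.42, 12.69 and 13.22 in CTX 4h, a difference of 0.12 ± 0.11 (adjusted p = 0.625, limma). The within-batch SD of Pcna was 0.19 in CTX 4h and 0.47 in native, or 0.22 in native without replicates 4 and 25. Rfc4, a clamp loader subunit, had the widest range: 8.14, 11.33 and 13.31 in native and 10.44, 11.20 and 13.43 in CTX 4h, a difference of -0.29 ± 0.27 (adjusted p = 0.604, limma). The loader subunits Rfc2, Rfc3 and Rfc5 differed by -0.12 ± 0.15, 0.14 ± 0.13 and -0.13 ± 0.14.

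In the lagging strand group Fen1, the flap endonuclease, differed by -0.06 ± 0.16 (adjusted p = 0.874, limma), and Lig1, the ligase that seals Okazaki fragments, by 0.06 ± 0.14 (adjusted p = 0.855). Uhrf1, which reads hemimethylated DNA behind the fork, differed by 0.03 ± 0.15. In nucleotide supply Rrm2, the small and cell cycle regulated subunit of ribonucleotide reductase, ran through 8.85, 11.48 and 12.77 in native and 10.79, 11.48 and 12.82 in CTX 4h, a difference of 0.17 ± 0.19 (adjusted p = 0.684, limma). Rrm1 ran through 8.64, 11.78 and 12.56 in native and 11.09, 11.66 and 12.61 in CTX 4h, a difference of 0.01 ± 0.18. The reductase subunits thus had the same or nearly the same medians in both groups. Tk1 differed by -0.13 ± 0.13 (adjusted p = 0.646, limma) and Tyms, thymidylate synthase, by 0.12 ± 0.19. Tk1 has a second probe set, which correlated with the one used at r = 0.81 over the arrays. At 100 ng the treatment difference was -0.08 by the one used and 0.21 by the other. The other Tk1 values given here, with its relations to mitotic genes and to other members, are by the one used.

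**Figure D2:**
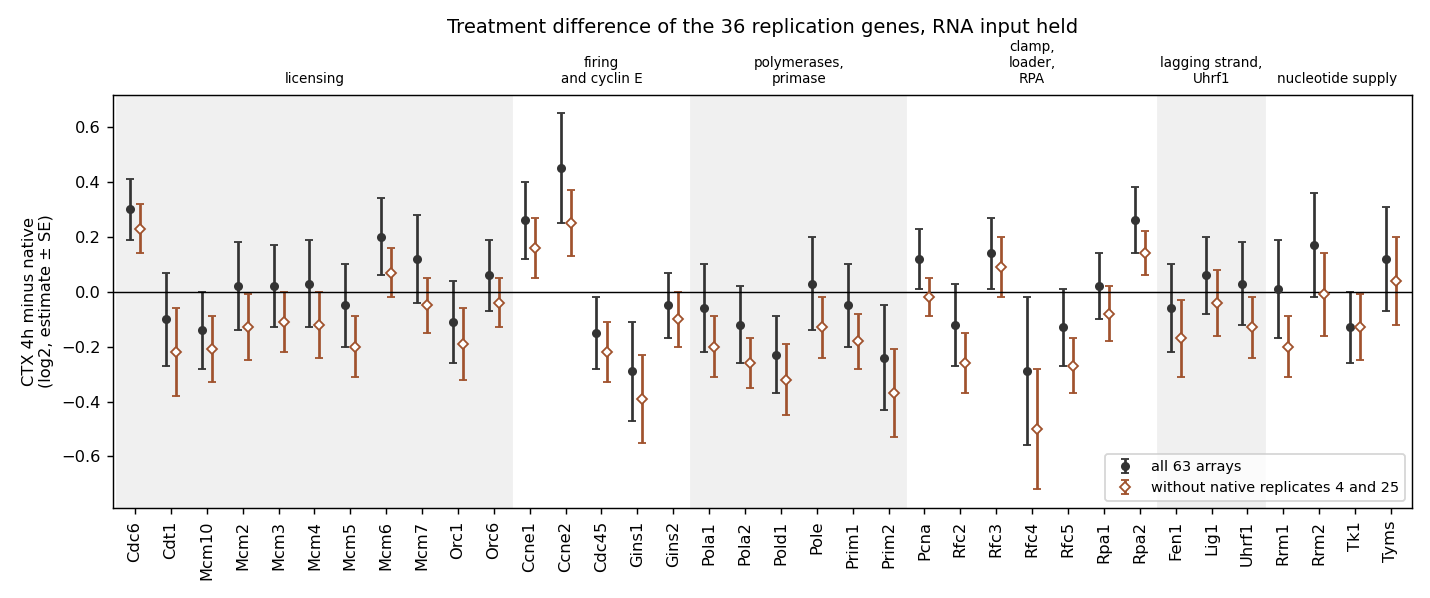
Difference CTX 4h minus native of each of the 36 genes (log2, estimate ± SE, RNA input held), grouped by step, over all 63 arrays (filled circles) and without native replicates 4 and 25 (open diamonds). The filled circles lie on both sides of 0 with a median of 0.02, and the open diamonds lie mostly below it, with a median of -0.13 and all 6 polymerase and primase genes below 0.

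Without native replicates 4 and 25 the differences moved down. None of the 36 passed, where 12.5% of all genes did, but 29 of 36 were below 0 and 7 above it, where 50.9% of all genes were above 0, and the median was -0.13. At an unadjusted p under 0.05, 1 member was higher and 7 were lower, where 13.4% and 19.1% of all genes were. All 6 polymerase and primase genes were then below 0, with a median of -0.23. Pola2 was at -0.26 ± 0.09 (adjusted p = 0.0503, limma), Rfc5 at -0.27 ± 0.10 (adjusted p = 0.0534) and Pold1 at -0.32 ± 0.13 (adjusted p = 0.076). Cdc6 remained above 0, at 0.23 ± 0.09 (adjusted p = 0.0839, limma). The mitotic list then had 33 of 34 genes lower, with a median of -0.73. These fits held RNA input and not the leading digit of the lymphoma number. At 100 ng, numbers starting 1 made up 7 of 15 native and 6 of 29 CTX 4h arrays. For those numbers 23 of 36 members were higher and none was lower, where 29.9% of all genes were higher. What part this make-up has in the shift cannot be told from these fits, and medians within single batches are given below.

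Other replication genes, from lists of genes with the same roles that are not members, were also compared. None passed over all 63 arrays: 0 of 20 further licensing and firing genes (median -0.09), 0 of 24 fork and polymerase genes (median -0.09), 0 of 17 nucleotide genes (median -0.14) and 0 of 11 chromatin assembly genes (median -0.11). The smallest p of each list belonged to Mcm8, a helicase of homologous recombination, at -0.44 ± 0.14 (adjusted p = 0.0741, limma), to Top1, the type I topoisomerase, at -0.34 ± 0.14 (adjusted p = 0.194), to Dctd, dCMP deaminase, at -0.46 ± 0.18 (adjusted p = 0.159), and to Asf1a, a histone chaperone, at -0.22 ± 0.15 (adjusted p = 0.471). The next were Orc3, a subunit of the origin recognition complex, at -0.46 ± 0.15 (adjusted p = 0.0834, limma), Clspn, the checkpoint mediator at forks, at 0.27 ± 0.14 (adjusted p = 0.313), Rrm2b, the p53-inducible reductase subunit, at -0.32 ± 0.15 (adjusted p = 0.252), and Nasp, a histone chaperone, at -0.18 ± 0.13 (adjusted p = 0.483). Without native replicates 4 and 25, 5 of 20, 3 of 24, 5 of 17 and 1 of 11 were called, all lower, where 8.31% of all genes were. Orc3 was then at -0.58 (adjusted p = 0.00483, limma), Dbf4, the activator of the Cdc7 kinase that fires origins, at -0.47 (adjusted p = 0.0192), Dctd at -0.62 (adjusted p = 0.00184) and Atic, an enzyme of purine synthesis, at -0.35 (adjusted p = 0.0223).

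Within single batches no member was called in any of the 4, where 0.01%, 0.00502%, 0% and 1.04% of all genes were called for numbers starting 1, 8 and 9 and for 300 ng. For numbers starting 1 the median of the 36 differences was 0.00, and they ran from -0.18 to 0.23. For numbers starting 8 the median was 0.09, with 28 of 36 above 0, where 46.5% of all genes were. The median was thus near 0 in both batches, with most members slightly above 0 for numbers starting 8.

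For numbers starting 9 the median was 0.34, with 34 of 36 above 0 where 51.8% of all genes were, and 11 were higher at an unadjusted p under 0.05 where 4.58% of all genes were. Rrm2 was 11.05, 10.97, 11.54, 10.42 and 8.85 on the 5 native arrays of this batch, and its difference was 0.89 ± 0.30 (adjusted p = 0.43, limma). Ccne2 was 9.31, 10.12, 10.20, 9.41 and 6.56, with a difference of 0.96 ± 0.36 (adjusted p = 0.459, limma). Uhrf1 was 10.15, 10.78, 10.84, 10.16 and 8.24, with a difference of 0.70 ± 0.24 (adjusted p = 0.43, limma). For each of these genes the last of the 5 arrays, native replicate 25, was the lowest by far. Without it the median of this batch was 0.03, with 20 of 36 above 0 where 54.7% of all genes were, and none of the 36 was past an unadjusted p of 0.05, where 5.41% of all genes were.

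At 300 ng the median was -0.23, with 31 of 36 below 0 and 5 above it, where 39.2% of all genes were above 0. At an unadjusted p under 0.05, 2 members were lower, Prim2 and Pold1, where 7.52% of all genes were. Prim2 was 9.03 and 9.32 on the 2 CTX 4h arrays, against a lowest, median and highest of 7.77, 10.09 and 10.79 on 17 native arrays. Its difference was -0.82 ± 0.41 (adjusted p = 0.393, limma). Pold1 was 9.62 and 9.29 against 9.01, 10.21 and 10.57, a difference of -0.67 ± 0.29 (adjusted p = 0.293, limma). Only native replicate 4 made the groups overlap for these genes: the other 16 native arrays started at 9.54 for Prim2 and 9.84 for Pold1, above both CTX 4h arrays. So it was for Rfc2, at most 9.29 in CTX 4h against at least 9.42, and for Rfc5, at most 11.05 against at least 11.06. The other members overlapped, and the share of all genes without overlap was not computed. Without native replicate 4 the median of this batch was -0.34, and 8 members were lower at an unadjusted p under 0.05 where 13.3% of all genes were, none of them past adjustment. The mitotic scores of the 2 CTX 4h arrays were -1.47 and -1.08, and their macrophage scores 1.30 and 0.89. A test of whether the treatment difference varied between batches called none of the 36 and 0% of all genes, and 1 of 36 at an unadjusted p under 0.05, where 4.66% of all genes passed. Native arrays at 300 ng and 100 ng were also compared: 0 of 36 passed and 0% of all genes did, with a median of 0.29, and RNA input and other features of these array sets cannot be told apart.

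**Figure D3:**
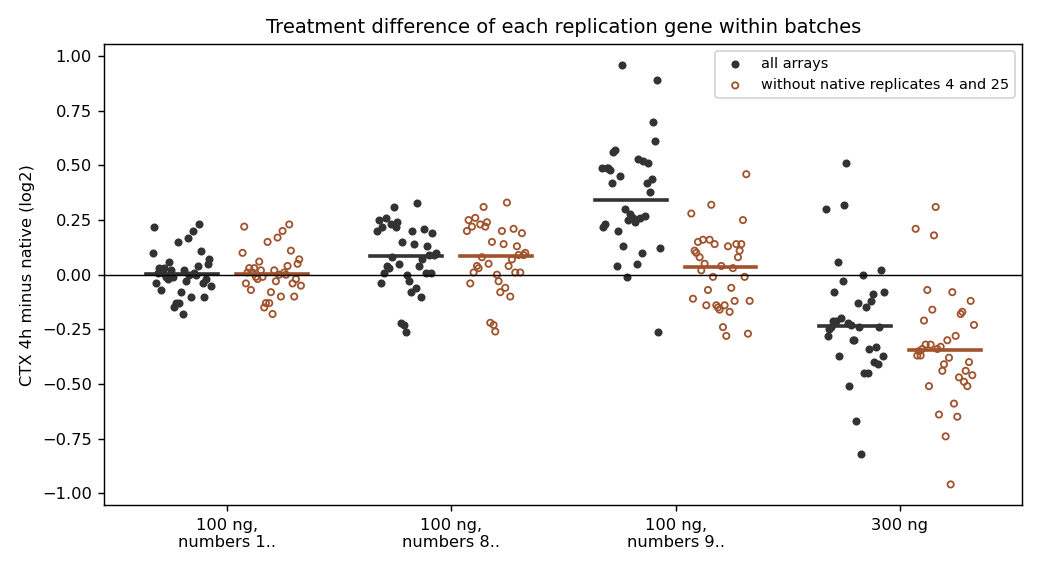
Difference CTX 4h minus native of each of the 36 genes (log2, vertical axis) in each of the 4 batches (horizontal axis), with a line at the median, over all arrays (filled) and without native replicates 4 and 25 (open). The points for numbers starting 9 lie above 0 with a median of 0.34 and centre near 0 without those arrays, whereas those at 300 ng have a median of -0.23.

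Across native lymphomas the replication genes rose with the mitotic genes. The slope on the mitotic score, with batch held, was above 0 and past the test for 36 of 36 members, where 27.6% of all genes were called higher (limma with Benjamini-Hochberg adjustment). The slopes ran from 0.47 to 1.46 log2 per unit of score, with a median of 0.94. By step the medians were 0.93 for licensing, 0.90 for firing, 1.02 for polymerases, 0.80 for the clamp group, 0.89 for the lagging strand group and 1.03 for nucleotide supply; differences between the steps were not tested. The relations are between transcripts of the same arrays and share each array's scaling. Of the genes in the other lists, 20 of 20, 23 of 24, 15 of 17 and 11 of 11 were called higher too.

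The tightest relation was that of Rrm1, with a slope of 1.36 ± 0.07 (adjusted p = 3.91e-15, limma). Its Pearson's r with the score, batch-centred, was 0.96 and Spearman's rho 0.92, each with a permutation p of 1e-05, the smallest that 100000 permutations can give, and r was 0.89 without the 2 arrays farthest from the median score, which are native replicates 4 and 25. Ccne2 had the steepest slope, 1.46 ± 0.13, and Rfc4 1.39 ± 0.11 (adjusted p = 8.68e-12, limma). Mcm5 led the licensing genes at 0.93 ± 0.07 (adjusted p = 2.41e-12, limma), Prim2 the polymerase group at 1.04 ± 0.07 (adjusted p = 1.36e-12), Rfc2 the clamp group at 1.07 ± 0.07 (adjusted p = 1.41e-13), Uhrf1 the lagging strand group at 0.95 ± 0.09 (adjusted p = 5.96e-10) and Ccne1 the firing genes at 0.97 ± 0.08 (adjusted p = 3.22e-11). The weakest relations by step were Tk1 at 0.47 ± 0.13 (adjusted p = 0.00242, limma), Pold1 at 0.60 ± 0.08, Rfc3 at 0.73 ± 0.12, Cdc45 at 0.67 ± 0.10, Orc1 at 0.83 ± 0.11 and Fen1 at 0.83 ± 0.09. Over the 36 members r ran from 0.56 to 0.96 with a median of 0.90, and r and rho each passed for 36 of 36 after adjustment over 72 relations.

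Without the 2 arrays that stand apart the relation remained for most members: 29 of 36 members were called, where 12.2% of all genes were, and the median slope was 0.75. The 7 that were not called were Cdc6, Orc6, Cdc45, Tyms, Tk1, Pole and Rfc3. Rrm1 kept a slope of 0.98 ± 0.11 (adjusted p = 9.44e-07, limma), Pcna one of 0.69 ± 0.11 (adjusted p = 9.11e-05), and Gins1 had the steepest at 1.18 ± 0.22. The r of the members without these arrays ran from 0.28 to 0.89, with a median of 0.62. Within the 17 native arrays at 300 ng r ran from 0.79 to 0.98, and within the 7 native arrays of numbers starting 1, which hold neither array that stands apart, from -0.34 to 0.93 with a median of 0.67.

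After cyclophosphamide the relation held for part of the list. In CTX 4h 15 of 36 members had a slope past the test, where 15.1% of all genes were called higher, and the median slope was 0.29 with a range from -0.18 to 0.85. By step these were 3 of 11 licensing, 2 of 5 firing, 4 of 6 polymerase, 5 of 7 clamp, 0 of 3 lagging strand and 1 of 4 nucleotide genes. Prim2 had the steepest slope, 0.85 ± 0.09 (adjusted p = 4.26e-08, limma), with r = 0.88 and rho = 0.84, each with a permutation p of 1e-05. Pola1 was at 0.66 ± 0.11 (adjusted p = 6.5e-05, limma), Rfc3 at 0.56 ± 0.10, Rfc4 at 0.54 ± 0.09, Rrm1 at 0.52 ± 0.07 (adjusted p = 5.31e-06) and Gins1 at 0.48 ± 0.10. Prim2 and Pola1 belong to the complex that starts each new strand, and Rfc3 and Rfc4 to the clamp loader; Pola2, which works with Pola1, did not pass, at 0.22 ± 0.10 (adjusted p = 0.12, limma). The slopes of other genes lay near 0: Ccne2 at -0.18 ± 0.15, Ccne1 at -0.02 ± 0.15, Cdc45 at 0.01 ± 0.14, Cdc6 at 0.02 ± 0.12, Mcm4 at 0.02 ± 0.14, Rrm2 at 0.03 ± 0.16 and Pcna at 0.09 ± 0.07.

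The count in CTX 4h depended on the settings and on 1 array. It was 9 without CTX 4h replicate 18, whose replication score was 0.73 and mitotic score 0.62, and 25 with the macrophage and stromal scores as terms. The shares of all genes under these changes are not given, so the counts cannot be read as particular to the members. The r of the 36 members in CTX 4h ran from -0.21 to 0.88 with a median of 0.41, and 23 passed by r and 19 by rho. Without the 2 arrays farthest from the median score, CTX 4h replicates 11 and 13, the median r was 0.45. Within batches the median r was 0.84 over 6 arrays of numbers starting 1, 0.24 over 9 arrays of numbers starting 8 and 0.47 over 14 arrays of numbers starting 9. Ccne2 was at 0.58, -0.33 and -0.33 in these batches, whereas Prim2 was at 0.76, 0.88 and 0.93 and Rrm1 at 0.89, 0.66 and 0.90.

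The slopes differed between the groups over all arrays. The slope was lower in CTX 4h than in native for 25 of 36 members, where 6.05% of all genes were called lower, and the median difference was -0.63. Ccne2 had the largest difference, -1.64 ± 0.20 (adjusted p = 5.23e-07, limma), followed by Rrm2 at -1.07 ± 0.20 (adjusted p = 0.000239) and Ccne1 at -0.98 ± 0.17 (adjusted p = 9.93e-05). Prim2 and Rfc3 had the smallest, -0.19 ± 0.11 (adjusted p = 0.298, limma) and -0.17 ± 0.17 (adjusted p = 0.538). This result rested on native replicates 4 and 25: without them none of the 36 was called and 0% of all genes were, 19 of 36 were lower at an unadjusted p under 0.05 where 4.62% of all genes were, and the median difference was -0.49. The smallest adjusted p was then 0.476.

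**Figure D4:**
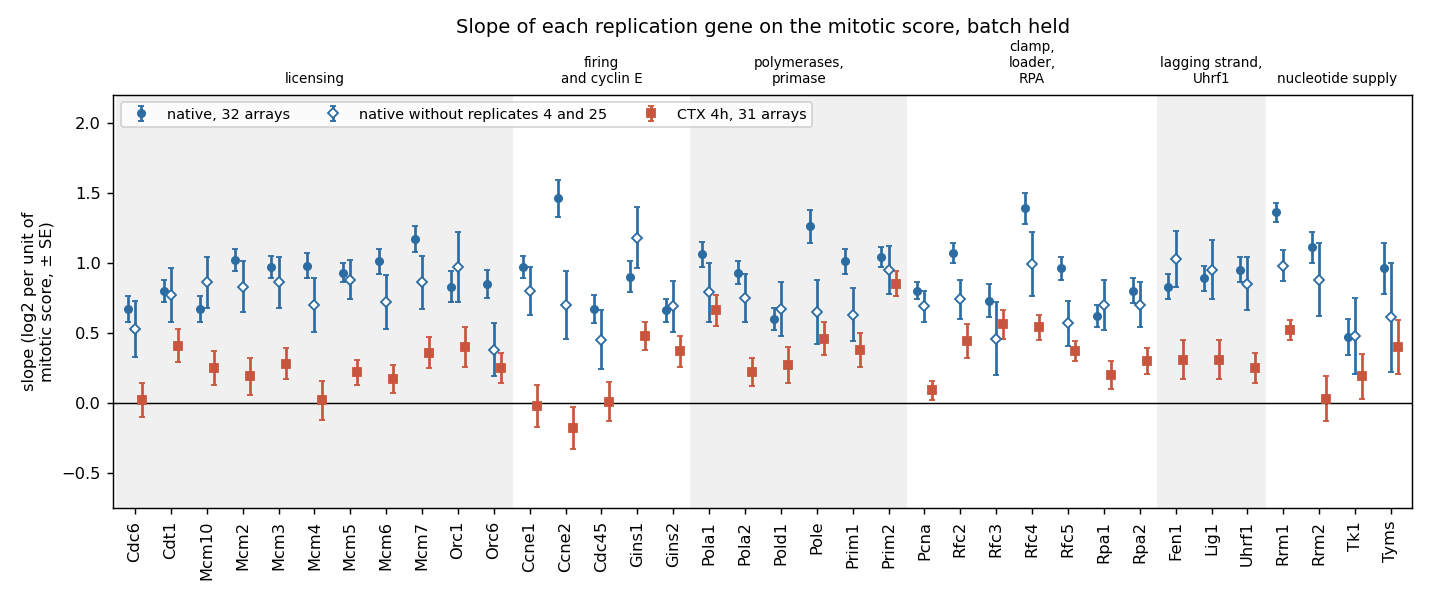
Slope of each of the 36 genes on the mitotic score (log2 per unit of score ± SE, batch held), grouped by step, in native (blue circles), in native without replicates 4 and 25 (open diamonds) and in CTX 4h (red squares). The native slopes lie between 0.47 and 1.46 and the CTX 4h slopes between -0.18 and 0.85, with Prim2 highest in CTX 4h and Ccne2 lowest.

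The mean of the 36 members relative to their means over all arrays, here the replication score, sums up the list. Its r with the mitotic score was 0.95 in native (n = 32), 0.75 without the 2 arrays that stand apart (n = 30) and 0.54 in CTX 4h (n = 31). Replication scores ran from -2.02 to 0.67 in native and from -0.51 to 0.84 in CTX 4h, whereas mitotic scores ran from -1.88 to 1.03 and from -1.55 to 0.85. The replication score also went with other measures: its r with the array median was -0.76, -0.61 and -0.59 in the same 3 sets, with the T and NK cell score -0.49, -0.48 and -0.59, and with Myc 0.92, 0.53 and 0.53. With the macrophage score it was -0.08 in native and -0.05 in CTX 4h. These measures share the arrays, and their part in the relation was not tested.

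**Figure D5:**
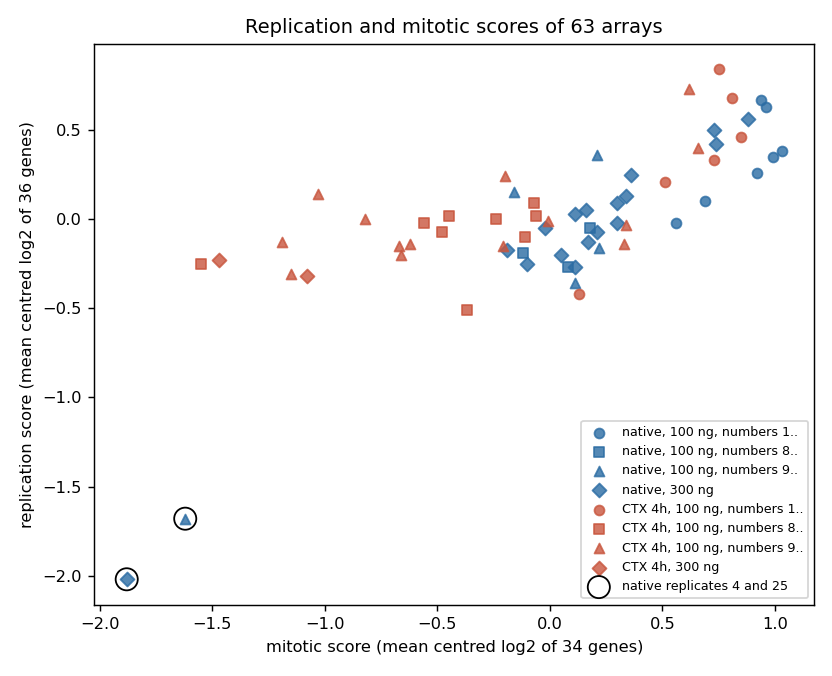
Replication score (mean centred log2 of 36 genes, vertical axis) against mitotic score (mean centred log2 of 34 genes, horizontal axis) of the 63 arrays, native in blue and CTX 4h in red, with a marker shape for each batch and a ring around native replicates 4 and 25. The ringed arrays lie at the lower left, at -2.02 and -1.68 on the vertical axis, and CTX 4h arrays with low mitotic scores keep replication scores of at least -0.51.

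The members also moved with each other. The median r over pairs of members was 0.85 in native, 0.64 without the 2 arrays and 0.63 in CTX 4h. The median r over pairs of a member and a mitotic gene was 0.83, 0.50 and 0.40, and over pairs of mitotic genes 0.89, 0.65 and 0.85. Mcm5 and Pcna were the closest pair in native, at 0.98, and Mcm6 and Pola1 stood at 0.97. In CTX 4h Mcm3 and Pola2 stood at 0.92 and Mcm2 and Lig1 at 0.91. Tk1 had the lowest median r with the other members in native, 0.64, and Ccne2 in CTX 4h, 0.22. These are descriptions over arrays that share batches and scaling.

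With the mitotic score held as a term, 20 of 36 members were higher in CTX 4h than in native, where 3.48% of all genes were called higher, with a median of 0.37. They included 8 of 11 licensing genes, 2 of 5 firing genes, 1 of 6 polymerase genes, 6 of 7 of the clamp group, 1 of 3 of the lagging strand group and 2 of 4 nucleotide genes. Rrm1 was at 0.55 ± 0.10 (adjusted p = 0.00169, limma), Rpa2 at 0.51 ± 0.10 (adjusted p = 0.00387), and Pcna at 0.40 ± 0.08 and Prim2 at 0.36 ± 0.08 (both adjusted p = 0.00735). The score is itself lower in CTX 4h, and all 36 members rose with it in native. The term by itself therefore moves these values up. The fit used 1 slope for both groups and held RNA input but not batch. These values thus depend on that common slope and do not compare the groups as they are. Without native replicates 4 and 25 none of the 36 passed, where 0.0201% of all genes did, and the median was 0.19. At an unadjusted p under 0.05, 15 were higher, where 4.65% of all genes were, and Prim2 had the smallest adjusted p, 0.0914 at 0.35 ± 0.08 (limma).

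Levels of several members also differed by lymphoma number. Among the 44 arrays made from 100 ng, with treatment held, 23 of 36 members were higher for numbers starting 1 than for numbers starting 8 or 9 and none was lower, where 59.3% of all genes differed and 29.9% were higher; this comparison was added after the values were seen. Rfc4 was higher by 1.83 (adjusted p = 5.32e-12, limma): it ran from 12.22 to 13.43 for numbers starting 1, from 10.68 to 11.73 for numbers starting 8 and from 8.74 to 12.11 for numbers starting 9. Numbers starting 1 did not overlap the others for Rfc4. Without native replicate 25 the count was again 23, with no share of all genes given. Cdt1 was higher by 1.13 (adjusted p = 9.55e-09, limma), Gins1 by 1.03 (adjusted p = 1.28e-08) and Prim2 by 1.02 (adjusted p = 1.25e-06). Native mitotic scores were also higher there, from 0.56 to 1.03. With the mitotic score as a term 10 members were called, 5 higher and 5 lower, also with no share of all genes given. Scaling mattered: the share of called genes that were higher was 50.4% as deposited and 80.1% with arrays shifted to a common median, which moved the median of all genes from -0.02 to 0.17. Quantile normalization called 14 of the 36 members, 8 higher and 6 lower, where 8491 of 19938 genes were called. What the leading digit stands for is not given in the labels.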

How the data were processed

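Expression was measured on 63 Affymetrix arrays of mouse lymph node lymphoma. The deposited values are log2 expression values per probe set, made by the authors with RMA in Partek 6.5, per the submitters' processing notes. No counts or depths exist for arrays, whose number limits the precision. Of 35557 probe sets, 21789 name 1 gene; each of 19938 genes was read from its probe set with the highest mean. Groups came from the treatment labels. Differences were fitted with limma 3.58.1 in R 4.3.3 over all genes, with RNA input or batch held, empirical Bayes moderation and Benjamini-Hochberg adjustment at 0.05. The mitotic score is the mean of 34 mitotic genes after centring each, and none of them is a member. Correlations were batch-centred and tested with 100000 within-batch permutations, two-sided, adjusted over 72 relations.

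Members and lists were chosen with earlier results of these data known. Statistics in full were given for the 2 members of each step with the smallest p between CTX 4h and native, for those with the largest and the smallest statistic of the native mitotic slope, and for members past the threshold, which are named with fewer values where many passed; of other lists, the members past the threshold or the 2 with the smallest p. Genes of other lists called only without the 2 arrays that stand apart, and the genes with the largest change for numbers starting 1, were picked after their values were seen.

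Alternatives were quantile normalization, a common median, other probe set and level rules, array weights, added score terms and leaving out arrays. On simulated data over 19938 genes, the fit of CTX 4h against native called 81 of 100 genes changed by 0.5. It called 96 of 100 changed by 1, with 8 unchanged genes called. The fit within numbers starting 9 called 168 of 200 changed by 1. The simulated noise was independent for each gene and array, with no batch shifts and no arrays that stand apart, unlike the real data. The share of members that would be called at such changes was not tested. Members spread more within batches, with a median SD of 0.58 in native and 0.38 in CTX 4h. For all genes it was 0.28 and 0.27.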

Additional observations from a re-analysis of the deposited data

Results flagged for a closer look

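The slope on the mitotic score differed between CTX 4h and native, by a test of the difference itself, for 25 of 36 members, each lower in CTX 4h (limma, Benjamini-Hochberg adjusted p under 0.05, log2 per unit of score). Among licensing genes it was -0.60 for Orc6, -0.66 for Cdc6, -0.83 for Mcm2, -0.70 for Mcm3, -0.95 for Mcm4, -0.71 for Mcm5, -0.83 for Mcm6 and -0.81 for Mcm7. Among firing genes it was -0.98 for Ccne1, -1.64 for Ccne2 and -0.66 for Cdc45. Among polymerase and primase genes it was -0.71 for Pola2, -0.80 for Pole and -0.62 for Prim1. In the clamp group it was -0.71 for Pcna, -0.63 for Rfc2, -0.85 for Rfc4, -0.59 for Rfc5, -0.41 for Rpa1 and -0.51 for Rpa2. In the lagging strand group it was -0.52 for Fen1, -0.59 for Lig1 and -0.70 for Uhrf1. In nucleotide supply it was -0.84 for Rrm1 and -1.07 for Rrm2. None of these differences was called without native replicates 4 and 25.

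Single arrays also lay far from the rest of their group and batch, by the gap between the lowest or highest value and its neighbour relative to the range. This was checked for 144 sets of a gene, a group and a batch of 5 to 9 arrays, and 25 were past the limit. For a single set the limit is passed by chance about 1 time in 20. The members move together and share the arrays, so the sets are not independent, and the count was not tested against chance. Shares over all genes, also for the counts of lowest values below, were not computed. Native replicate 25 was the lowest of 5 native arrays of numbers starting 9 for 35 of 36 members and past the limit for 10: Mcm4 was 8.73, Pcna 10.57, Rrm1 8.64, Ccne2 6.56, Pola2 7.97, Pole 8.0, Rfc2 7.55, Rfc5 9.52, Rpa1 8.77 and Uhrf1 8.24. CTX 4h replicate 10 was the lowest of 9 treated arrays of numbers starting 8 for 17 members and past the limit for 7: Mcm2 was 9.76, Mcm6 10.48, Mcm7 11.05, Tyms 8.92, Lig1 9.25, Pold1 8.60 and Rfc2 8.65. Its replication score was -0.51 and its mitotic score -0.37. In the same batch CTX 4h replicate 4 had the highest Pole, 10.64, and CTX 4h replicate 11 the lowest Rfc3, 9.05. CTX 4h replicate 31 was the lowest of 6 treated arrays of numbers starting 1 for 33 members and past the limit for 5: Pola2 was 9.63, Pole 9.18, Prim2 10.10, Rpa2 9.75 and Orc6 9.95. The T and NK cell score of that array was 1.90 and its plasma cell score 1.05. Native replicate 26 had the lowest Pold1 of 7 native arrays of numbers starting 1, 9.72.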

How the results depend on the processing

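The count of members past the adjusted threshold between CTX 4h and native, 0 over all arrays, was 2 with quantile normalization, where 778 of 19938 genes were called. It was 8 with array weights, for which the share of all genes is not given. With the mitotic score as a term it was 20, where 3.48% of all genes were called higher. With that term all 17 members below 0 over all arrays were above 0, and 5 of them were called: Cdt1 (0.38), Mcm5 (0.36), Prim2 (0.36), Rfc4 (0.49) and Rfc5 (0.29). The lower mitotic score in CTX 4h moves values up in this fit, so the upward direction is no separate result. Counts below with no share of all genes beside them cannot be set against one. With the mitotic term 3 members were called within numbers starting 9 and 1 at 300 ng, where Rrm1 reversed to 1.11. The slope in CTX 4h, 15 members, gave 26 with no batch term, 6 with quantile normalization, 25 with macrophage and stromal scores and 27 with a common median. The difference of slopes, 25 members, gave 0 without native replicates 4 and 25. The comparison of numbers starting 1, 23 members, gave 14 with quantile normalization, where 8491 of 19938 genes were called, and 10 with the mitotic term. The cause was not tested. Leaving out each array in turn gave 0 to 0 members between CTX 4h and native and within batches, 35 to 36 for the native slope, 9 to 19 for the CTX 4h slope, 22 to 30 for the difference of slopes and 22 to 24 for numbers starting 1. The native slope gave 30 members with 100 ng arrays only and 29 without the 2 arrays. No paired analysis was possible because the replicate numbers in the titles are nearly all the same and each lymphoma number occurs once. Array number limits precision, most at 300 ng, with 2 treated arrays.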
